A study of Mus musculus with 4 samples.

Results

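Nasal epithelial cells were examined in 4 single-cell RNA-seq libraries that had been prepared from CD45+ cells of the mouse nasal mucosa. CD45, the product of Ptprc, is a surface protein of leukocytes, so the epithelial cells described here were carried through an enrichment for other cells. They were selected on their own UMI counts (a UMI marks 1 captured RNA molecule). A cell passed with at least 500 UMIs, at least 200 genes and under 10% mitochondrial UMIs. A passing cell was a member with at least 1 Epcam UMI, at least 4 UMIs over the keratins Krt5, Krt8, Krt15 and Krt18 and 0 Ptprc UMIs. It also had under 2 UMIs over the olfactory neuron genes Stoml3, Cnga2 and Cnga4, under 2 over the macrophage genes C1qa, C1qb and C1qc, and under 5 over the collagen genes Col1a1 and Col3a1. Of 72320 passing cells, 660 were members.

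The libraries came from C57BL/6 mice aged 8 weeks, and were labelled by treatment as Vehicle or Ribavirin alone, or as Vehicle-OVA or Ribavirin-OVA. The allergen of the rhinitis model is ovalbumin (OVA), and ribavirin is a nucleoside drug against viruses that the series describes as a spray against commensal viruses of the nose. CD45+ cells had been enriched in all groups, with magnetic beads in the sample labels and by fluorescence-activated sorting in the series text, and the ribavirin dose and the number of mice behind a library were not given in the sources used here. With 1 library in each group, variation from mouse to mouse was not measured, and differences are given as values without a test. Intervals are at the 95% level and reflect counting error alone.

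The nasal cavity is lined by respiratory epithelium, with basal stem cells, secretory and goblet cells that make mucus and antimicrobial proteins, ciliated cells, and rare ionocytes and tuft cells. The olfactory epithelium adds sustentacular cells, which surround the sensory neurons and are rich in enzymes that metabolise inhaled chemicals, and glands under both epithelia secrete odorant binding proteins and lipocalins. In type 2 allergy the cytokines IL-4 and IL-13 act on epithelial cells through a receptor of Il4ra and Il13ra1. Epithelial cells in turn release IL-25 (mainly from tuft cells), IL-33 and TSLP, which activate type 2 lymphocytes.

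The members carried other epithelial genes that the rule had not used. Wfdc2, a secreted protease inhibitor of airway epithelium, had a level of 2788, 3536, 3939 and 3376 CPM over the members of Vehicle, then Vehicle-OVA, then Ribavirin, then Ribavirin-OVA, the order kept throughout. CPM are the summed UMIs of a gene per 1000000 UMIs summed over the members of a library. In leukocytes, taken as cells with a Ptprc UMI and no UMI of Epcam or the 4 keratins, its level was 4.84, 9.53, 13 and 26 CPM. After every cell was thinned to 2000 UMIs, a Wfdc2 UMI was found in 55.9%, 87.5%, 66.6% and 69.9% of members and in 0.953%, 2.05%, 3.05% and 6.23% of these leukocytes (unthinned, 75.5%, 95%, 85.2% and 90.7% of members). Of the rule's own genes, given as a description, Epcam stood at 838, 926, 803 and 613 CPM, Krt8 at 729, 1263, 754 and 1203 CPM, Krt18 at 1161, 1247, 1304 and 1158 CPM, Krt5 at 91.6, 377, 294 and 437 CPM and Krt15 at 259.9, 620.5, 579 and 413 CPM. The genes with the largest excess over all other passing cells, in the library where that excess was smallest, were Gstm5 (10.1-fold, a glutathione transferase), Rgs5, Aqp4, Sult1c1, Cyp2a5, Aqp3, Krt14, Msln, Cbr2 and Chil6 (8.21-fold).

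The members were deep but held RNA of other cells. In the same order there were 147, 40, 366 and 107 members, which summed to 2400960, 1057292, 7971239 and 3291823 UMIs, with medians of 10295, 24756, 16188 and 21428 UMIs per member. At least 2 UMIs over the leukocyte genes Tyrobp, Fcer1g, Coro1a, Laptm5 and Srgn were found in 46.3%, 90%, 59.3% and 64.5% of members. The 9 genes of a leukocyte list summed to 324, 491, 284 and 269 CPM in members and to 12868, 12999, 11157 and 7437 CPM in all other passing cells. The 8 genes of a neutrophil list summed to 566, 875, 416 and 276 CPM in members and to 16173, 39881, 22036 and 12586 CPM in the others. Both lists were highest in the members of Vehicle-OVA. Members also had a higher median share of mitochondrial UMIs, at 4.51%, 4.79%, 4.63% and 5.71% against 2.47%, 1.32%, 2.40% and 3.43% over all passing cells. The part of doublets or free RNA in these values was not tested. The whole libraries held 10311 to 28277 cells and 91742940 to 171873110 UMIs. Between 57 and 174 barcodes were shared by 2 libraries, 10 members had a barcode seen in another library, and no barcode was a member in both.

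**Figure D1:**
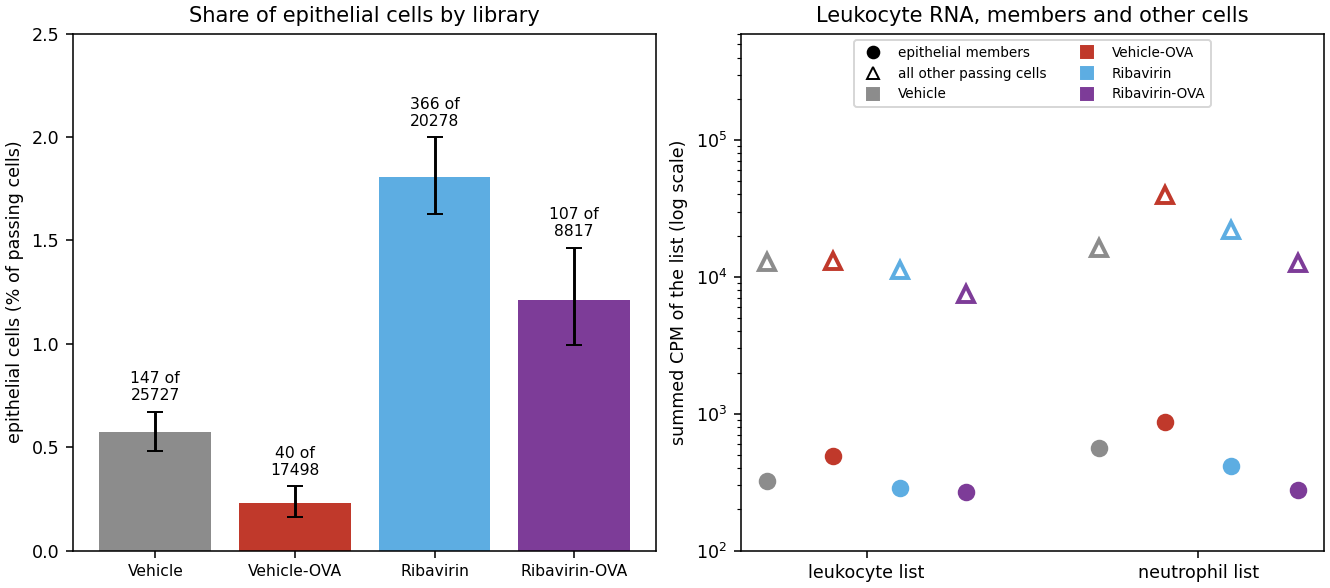
The left panel plots the epithelial members as a percent of passing cells (y axis from 0) in each library, with exact 95% intervals and the counts above each bar, and the right panel plots the summed CPM (log axis) of the leukocyte and the neutrophil list in members (filled circles) and in all other passing cells (open triangles). The share was 0.571% in Vehicle, 0.229% in Vehicle-OVA, 1.80% in Ribavirin and 1.21% in Ribavirin-OVA, and each list was lower in members than in other cells of the same library.

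Next, the share of epithelial cells was compared. Members were 0.571% of passing cells in Vehicle (0.483 to 0.671, exact Clopper-Pearson) and 0.229% in Vehicle-OVA (0.163 to 0.311). They were 1.80% in Ribavirin (1.63 to 2.00) and 1.21% in Ribavirin-OVA (0.996 to 1.46). The share was thus highest in both ribavirin libraries, at 3.16-fold (2.60 to 3.85) the share of Vehicle in Ribavirin and 5.31-fold (3.66 to 7.84) that of Vehicle-OVA in Ribavirin-OVA. With OVA it was 0.400-fold (0.275 to 0.571) without ribavirin and 0.672-fold (0.537 to 0.836) with it. Deposited cells of Ribavirin had at least 1782 UMIs, against 500 or 501 in the other libraries, so low-UMI cells were absent from its total. Among cells with at least 2000 UMIs, the share of Ribavirin was 2.88-fold (2.37 to 3.52) that of Vehicle. The share of Ribavirin-OVA was then 0.747-fold (0.594 to 0.932) that of Ribavirin. A different number of epithelial cells in the tissue and a different number carried through the enrichment cannot be told apart. This holds for the OVA pairs and for the ribavirin pairs, and none of the alternatives varied the enrichment. The direction in both OVA pairs depended on depth or on doublets, whereas both ribavirin pairs kept theirs under all 9 alternatives. Thinned to 2000 UMIs, the log2 ratio for Ribavirin-OVA over Ribavirin went from -0.57 to 0.09, and without the cells with the highest doublet scores (110 of the 147 members of Vehicle and 12 of the 40 of Vehicle-OVA) that for Vehicle-OVA over Vehicle went from -1.32 to 0.10.

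Cells near the limits of the rule were few, except those that only their Ptprc UMIs kept out. Members with Epcam at 1 UMI numbered 7, 0, 12 and 7, and cells with Epcam at 0 that met all else numbered 7, 3, 8 and 9. Members with a keratin sum of 4 numbered 4, 0, 8 and 3, and cells with a sum of 3 that met all else numbered 1, 0, 4 and 3. In contrast, 107, 60, 221 and 80 cells met all conditions but had at least 1 Ptprc UMI. Of these, 56.1%, 6.67%, 29.9% and 10% carried Trpm5, a channel of tuft cells, against 24.5%, 10%, 11.5% and 4.67% of members. Part of the tuft cells thus lay outside the rule.

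To dissect the composition of the epithelium, the 660 members of the 4 libraries were clustered together, which gave 16 clusters. Clusters were grouped by their detected markers, so their leading genes are a description. The tuft-like cluster (85 cells) led with Lrmp, Adgrg6 and Trpm5 and had 9 of 11 tuft markers. Basal-like cells (58) led with Cpe, Igfbp2 and Trp63, the transcription factor of basal stem cells, and had 8 of 9 markers. The sustentacular-like class joined a cluster led by Sec14l3, Gstm1 and Dcn (64 cells, 8 of 8 markers) and one led by Crabp1, Sult1c1 and Papss2 (21 cells, 7 of 8), in which Chil4 was among the first 5 genes. The secretory-like class joined a cluster led by Tff2, Bpifa1, Bpifb1 and Muc5ac (54 cells, 6 of 8 markers) and one led by Hp, AW112010 and Gp2 (40 cells, 3 of 8). The first of these also had 4 goblet markers, so goblet cells were not told apart from secretory ones. Gland-like cells formed 3 clusters of 29, 24 and 22 cells, which led with 5430401F13Rik, Gm14744 and Gm6619, with Bpifb9b, Bpifb9a and Bpifb5, and with Lcn3, Lcn4 and Dmbt1. The ionocyte-like cluster (13 cells) led with Coch, Stap1 and Gm933 and had 6 of 7 markers.

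The remaining 6 clusters were left unnamed. The largest of all clusters (98 cells) led with Krt15, Krt6a and Krt13 and carried 8 of 9 basal markers beside 6 squamous ones. The others led with Tac1 and Ccl9 (44 cells), Bpifb6 and Bpifb3 (43), Dcpp3 and Dclk1 (36), Igfbp5 and Egln3 (20), and Car6 and Scgb1b27 (9). No cluster was ciliated-like, and Foxj1, the regulator of motile cilia, had a UMI in only 4, 3, 11 and 11 members. Genes of 1 class held nearly all UMIs of several markers, as a description of these clusters. Tuft-like cells held 100% of Il25 and 98.5% of Trpm5 UMIs, gland-like cells 98.9% of those of Obp1a (an odorant binding protein), sustentacular-like cells 94% of Sec14l3 (a lipid transfer protein), and secretory-like cells 88.5% of Bpifa1 and 96.4% of Muc5ac, the mucin of goblet cells.

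The classes made up different parts of the 4 libraries. Basal-like cells numbered 7, 4, 16 and 31 and formed 4.76%, 10%, 4.37% and 29% of the members. Their share was highest in Ribavirin-OVA, at 29% (20.6 to 38.5) against 4.37% (2.52 to 7) in Ribavirin, and the log2 ratio of 2.73 was above 0 under all 8 alternatives, between 0.79 and 2.82. The unnamed Krt15 and Krt6a cluster, which also carried basal markers, had 11, 6, 69 and 12 cells. Joined with it, basal-like cells made up 12.2%, 25%, 23.2% and 40.2% of the members, with a log2 ratio of 0.79 for Ribavirin-OVA over Ribavirin. Without clustering, the log2 ratio was 0.93. For this, each cell took the class with the highest mean marker CPM, each marker relative to its mean over all members. In Vehicle-OVA only 4 basal-like cells were found, and the interval of 2.79% to 23.7% held the 4.76% of Vehicle.

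Tuft-like cells numbered 37, 4, 39 and 5 and formed 25.2%, 10%, 10.7% and 4.67% of the members, highest in Vehicle. Their share in Ribavirin was 0.423-fold (0.263 to 0.683) that of Vehicle, and the intervals of both OVA pairs held 1-fold. Without the cells with the highest doublet scores, where 31 of the 37 members left in Vehicle were tuft-like, it was 0.149-fold (0.089 to 0.251) that of Vehicle in Ribavirin and 0.171-fold (0.0437 to 0.482) in Vehicle-OVA. Sustentacular-like cells numbered 27, 1, 47 and 10 (a share of 18.4%, 2.5%, 12.8% and 9.35%) and gland-like cells 18, 2, 49 and 6 (12.2%, 5%, 13.4% and 5.61%). These counts of Vehicle-OVA depended on the processing. At a clustering resolution of 0.5 the sustentacular-like cells of Vehicle-OVA numbered 6, or 15% against 17.7% in Vehicle, as they did at 2000 UMIs per cell (15% against 18.2%). Gland-like cells of Vehicle-OVA numbered 8 at a resolution of 2 (20% against 10.2% in Vehicle) and 9 without the highest doublet scores (32.1% against 5.41%), where the direction turned. Ionocyte-like cells numbered 4, 0, 8 and 1, and 0 of 40 members of Vehicle-OVA allows a share of up to 7.5%. Secretory-like cells numbered 14, 6, 60 and 14 and formed 9.52%, 15%, 16.4% and 13.1%, with intervals that overlapped in every pair. Unnamed clusters held 27.2%, 57.5%, 40.2% and 37.4%, the most in Vehicle-OVA. The genes that define these classes also differed between libraries, and the clusters were built from them, so shares are a description. No class had 50 cells in both libraries of any pair.

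**Figure D2:**
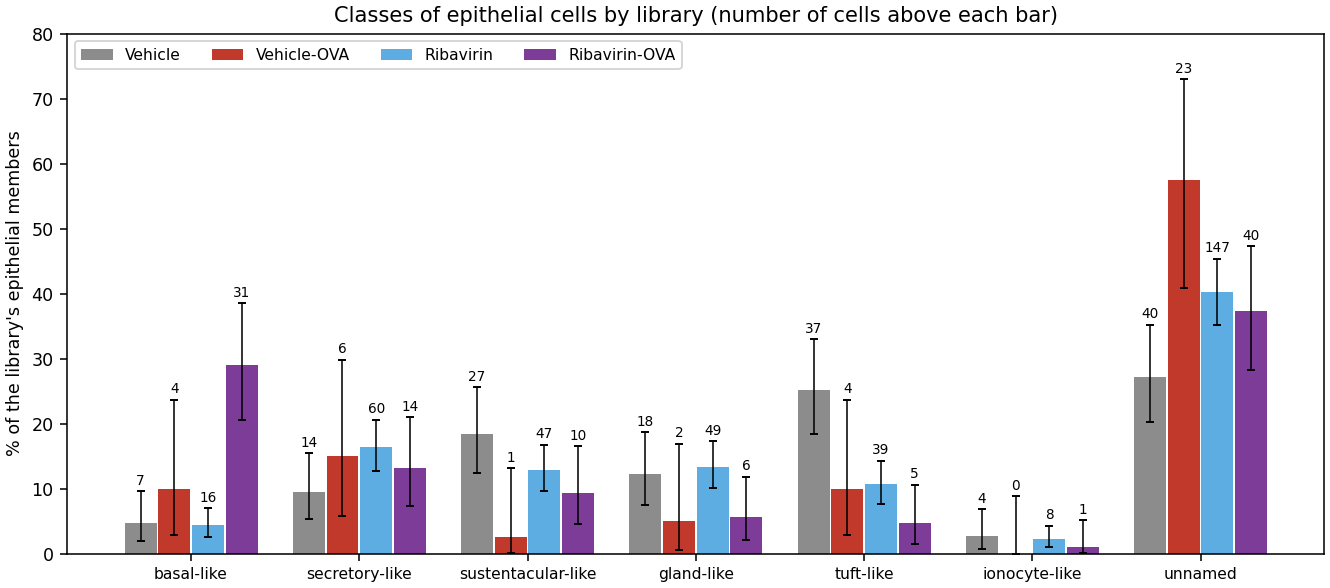
Bars give each class as a percent (y axis) of the epithelial members of a library, with exact 95% intervals and the number of cells above each bar. Basal-like cells reached 29.0% of the members of Ribavirin-OVA, and tuft-like cells were 25.2% of those of Vehicle.

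Next, the levels of single genes were compared in each OVA pair, to see which epithelial genes differed with the allergen model, without and with ribavirin. Genes were described by the log2 ratio of CPM + 10, for 10785 genes with at least 50 UMIs over the members of the 4 libraries, and a gene counted as different at 2-fold or more. In Vehicle-OVA over Vehicle, 854 genes were higher (7.92%) and 140 lower (1.3%). In Ribavirin-OVA over Ribavirin, 273 were higher (2.53%) and 102 lower (0.946%). In both pairs, which share no library, 162 genes were higher (1.5%) and 35 lower (0.325%). Across the 10785 genes the log2 ratios of the pairs had a Spearman rho of 0.63, as a description over genes, which are not independent of each other.

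Some genes have near-identical copies between which reads may have been split, and their levels are uncertain: Chil4 (with Chil3), Obp1a (Obp1b), Bpifb9a and Bpifb9b, Krt6a (Krt6b), Cyp2a5 (Cyp2a4) and Reg3g (Reg3b).

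The balance of higher and lower genes depended on the scaling. The 20 most abundant genes held 36.6% of member UMIs in Vehicle and 28.0%, 28.8% and 27.0% in the other libraries, and gland-like cells held 39.0%, 9.29%, 26.2% and 12.4% of them. Scaled by totals, the median gene of Vehicle-OVA over Vehicle stood at a log2 ratio of 0.30 and that of Ribavirin-OVA over Ribavirin at 0.21. TMM factors, which set the trimmed mean ratio to 0, differed within the pairs by a log2 of 0.50 and 0.35. As 10 CPM were added afterwards, single log2 ratios fell by no more than this, and the medians became -0.014 and 0.0009. With them, 269 genes were higher and 397 lower in the first pair, and 106 higher and 257 lower in the second. Counts of gene lists are therefore given under both scalings.

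Several IL-13 response genes were higher in both OVA pairs. Of 12 tested genes of a list of 20, 8 were higher and 0 lower in Vehicle-OVA over Vehicle (median log2 1.24), and 6 were higher and 0 lower in Ribavirin-OVA over Ribavirin (median 0.85; with TMM factors, 5 higher and 0 lower in the first pair and 4 higher and 0 lower in the second). The list's medians may be read against 0.30 and 0.21 over all tested genes. The 5 genes higher in both pairs were Chil4, Alox15, Arg1, Il13ra1 and Il4ra.

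Chil4 (ENSMUSG00000063779), a chitinase-like protein secreted by airway epithelium in type 2 inflammation, had the highest level of these in Ribavirin-OVA and stood at 581, 3838, 1427 and 25309.7 CPM in the 4 libraries. Vehicle-OVA came second. The log2 ratios were 2.70 and 4.14, and the level of Ribavirin-OVA was 17.7-fold (17.4 to 18.1) that of Ribavirin. In Vehicle a single cell held 87.8% of its UMIs. With the largest cell of each library left out, the log2 ratio of Vehicle-OVA over Vehicle was 5.19 and that of Ribavirin-OVA over Ribavirin 4.40. At 2000 UMIs per cell, a Chil4 UMI was found in 2.8%, 35%, 6.08% and 65% of members and in 0.0438%, 2.03%, 0.612% and 26.5% of leukocytes without an epithelial UMI (unthinned, 2.72%, 45%, 12.3% and 87.9% of members). Leukocytes of Ribavirin-OVA thus also carried Chil4, at 131 CPM.

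Chil4 was found in several classes rather than 1. In sustentacular-like cells it stood at 3551, 13609, 4705 and 57981 CPM, where Vehicle-OVA had 1 cell. Of these cells, 23 of 27 in Vehicle came from the Sec14l3 cluster and 6 of 10 in Ribavirin-OVA from the Crabp1 cluster, in which Chil4 was a leading gene, and within the Sec14l3 cluster it stood at 112, 13609, 3274 and 7844 CPM. In secretory-like cells it stood at 58.4, 6202, 2756 and 39894 CPM, and in basal-like cells at 0, 4328, 405 and 26949 CPM. In each of these classes the library with OVA was above its partner without OVA. Tuft-like cells stood at 0, 0, 4.68 and 23.5 CPM and gland-like cells of Ribavirin-OVA at 73.4 CPM, below the leukocytes of that library. Over the 4 Vehicle-OVA members with under 2 leukocyte UMIs the ratio turned, as Chil4 was at a log2 ratio of -4.52 against 79 cells of Vehicle. When members under this limit were clustered, 2 of the 4 were tuft-like, 1 basal-like and 1 secretory-like. Of the 79 cells of Vehicle, 28 were tuft-like. The ratio thus compared few cells of other classes.

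The promoter of Chil4 is shown because this gene had the largest OVA ratio of the list in Ribavirin-OVA, with the 250 bases before its start as RefSeq gives them on GRCm38.p6 (chr3:106219480-106219729, minus strand), 5′ to 3′. Capitals mark a match to TTCNNNGAA, the palindrome bound by STAT transcription factors, and a TATAAA box near the start.
Chil4: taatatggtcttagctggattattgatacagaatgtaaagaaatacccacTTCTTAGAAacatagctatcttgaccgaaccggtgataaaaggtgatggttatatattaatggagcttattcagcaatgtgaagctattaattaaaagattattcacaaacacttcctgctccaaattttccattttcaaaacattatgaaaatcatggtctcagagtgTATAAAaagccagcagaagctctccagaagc
On either strand, TTCNNNGAA was found in 7.02% of all 32851 promoters of this length, TATAAA in 12.4%, and TTCNNNNGAA, the spacing usual for STAT6, in 5.85%. Of the 8 promoters found for the 12 tested IL-13 response genes, 1, 2 and 0 held these motifs. These matches are letters in a window and no evidence of binding.

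Alox15, a lipoxygenase of airway epithelium that IL-13 is known to induce, stood at 46.2, 183, 77.2 and 308 CPM, highest in both OVA libraries (log2 1.78 and 1.87; TMM 1.34 and 1.54). Secretory-like cells held 44.2% and sustentacular-like cells 31% of its UMIs. Within secretory-like cells it stood at 86.1, 791, 211 and 538 CPM. At 2000 UMIs it was found in 6.99%, 12.5%, 7.18% and 22.3% of members and in 0.0219%, 0.149%, 0.0612% and 0.73% of leukocytes (unthinned, 20.4%, 30%, 24.6% and 47.7% of members). Over the same 4 Vehicle-OVA members with under 2 leukocyte UMIs its first log2 ratio was -2.59.

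The receptor chains were also higher with OVA. Il4ra stood at 15.8, 54.9, 15.2 and 47.4 CPM (log2 1.33 and 1.19) and Il13ra1 at 71.2, 167, 57.7 and 127 CPM (log2 1.13 and 1.02). In leukocytes Il13ra1 stood at 70.2, 162, 76.4 and 86.7 CPM, and at 2000 UMIs it was found in 13.3%, 27.6%, 15.6% and 16.6% of them against 25.9%, 37.5%, 13.5% and 16.5% of members (unthinned, 53.1%, 80%, 54.9% and 73.8%). The members' share was at or below that of leukocytes in both ribavirin libraries, where it does not set members apart. The part of leukocyte RNA in it was not tested. With TMM factors both were under 2-fold, at 0.96 and 0.94 for Il4ra and 0.67 and 0.71 for Il13ra1. In leukocytes Il4ra stood at 126, 279, 146 and 177 CPM, above members in every library, and was found in 21.3%, 37.3%, 26.1% and 26.3% of them at 2000 UMIs against 6.99%, 5%, 5.52% and 9.71% of members (unthinned, 21.1%, 57.5%, 24% and 46.7%). This share of members was below that of leukocytes, so it does not set members apart, and the part of leukocyte RNA in it was not tested. Without the highest doublet scores the first Il4ra ratio was -0.93. Arg1, an enzyme of arginine breakdown, stood at 0.833, 81.3, 0.753 and 24 CPM, but 1 cell held 80.2% of its UMIs in Vehicle-OVA, and leukocytes stood at 8.52, 1171, 38.7 and 1015 CPM. Ccl11, the eosinophil attractant eotaxin, was at 0 in Vehicle and at 246 CPM in Vehicle-OVA, at least 197-fold higher against a floor of 3 UMIs, and 1 cell held 66.9% of those UMIs.

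Goblet genes of the same list did not share a ratio. Muc5ac stood at 70, 308, 251 and 337 CPM (log2 1.99 and 0.41), but 1 cell held 84.7% of its UMIs in Vehicle-OVA, and without the largest cells the log2 ratios were 0.13 and -0.53. Both were then within 2-fold. Over members with under 2 leukocyte UMIs they were 6.03 and -1.59, so that neither the size nor, in the second pair, the direction held. Spdef, a transcription factor of goblet cells, stood at 22.9, 63.4, 20.3 and 32.8 CPM (log2 1.16 and 0.50), and Fcgbp, a mucus protein, at 23.3, 23.6, 39.5 and 144 CPM (log2 0.01 and 1.64). Clca1, a goblet cell protease that IL-13 induces in the lung, was at 0, 0, 1 and 11 UMIs and Scgb1a1, the club cell secretoglobin, at 0 in all libraries. Of the 9 mucins, 2 were higher and 1 lower in Vehicle-OVA over Vehicle (median log2 0.48), and 0 were higher and 0 lower in Ribavirin-OVA over Ribavirin (median 0.37; with TMM factors, 2 higher and 2 lower in the first pair and 0 higher and 0 lower in the second).

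**Figure D3:**
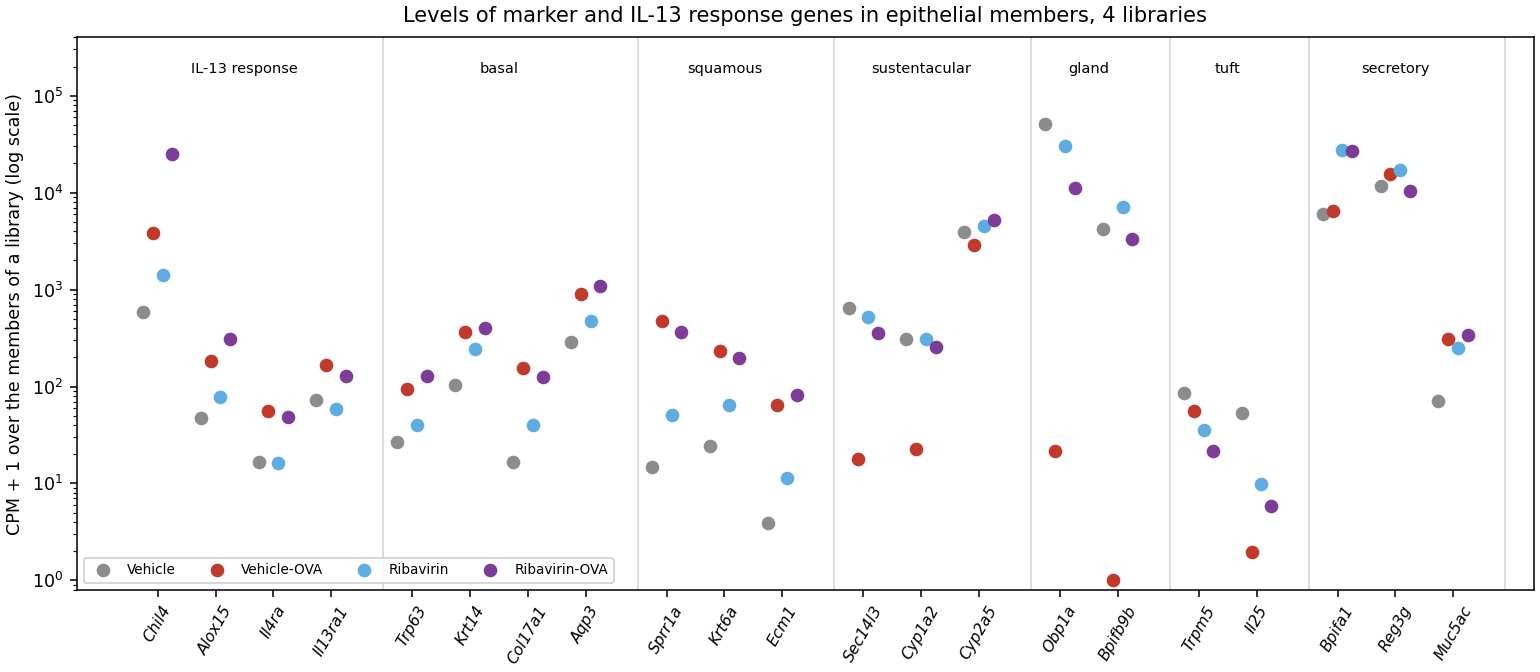
Each point is the level of a gene over the members of 1 library, as CPM + 1 on a log axis, with genes grouped by list along the x axis. Chil4 ran from 581 CPM in Vehicle to 25309.7 CPM in Ribavirin-OVA, both OVA libraries were above both others for Sprr1a and Krt6a, and Bpifa1 was higher in both ribavirin libraries.

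Several basal and squamous genes were higher with OVA. Of 9 basal markers, 7 were higher and 0 lower in Vehicle-OVA over Vehicle (median log2 1.52), and 3 were higher and 0 lower in Ribavirin-OVA over Ribavirin (median 0.76; with TMM factors, 5 higher and 0 lower in the first pair and 2 higher and 0 lower in the second). Of 8 tested squamous markers, genes of stratifying and injured epithelium, 5 were higher and 0 lower in Vehicle-OVA over Vehicle (median log2 1.33), and 4 were higher and 0 lower in Ribavirin-OVA over Ribavirin (median 1.09; with TMM factors, 5 higher and 0 lower in the first pair and 4 higher and 0 lower in the second). Of the 4 squamous genes higher in both pairs, Sprr1a, Krt6a, Ecm1 and Krt13, the last came from few cells. Krt5 and Krt15 of the basal list belonged to the selection rule, and of the 7 other basal markers 5 were higher and 0 lower in the first pair and 3 were higher and 0 lower in the second.

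Trp63 stood at 25.8, 92.7, 39.1 and 127 CPM, higher in both OVA libraries (log2 1.52 and 1.48). Within basal-like cells, however, it stood at 664, 852, 716 and 709.5 CPM, which differed far less than over all members. Col17a1, a hemidesmosome collagen of basal cells, stood at 15.8, 153, 39 and 125 CPM over all members (log2 2.66 and 1.47) and at 133, 522, 205 and 504 CPM within basal-like cells, so that both OVA libraries were also higher within the class. Krt14, a basal keratin, stood at 102, 362, 242 and 403 CPM over all members and at 2655, 2418, 1749 and 1483 CPM within basal-like cells, where the OVA libraries were not higher. Aqp3, a water and glycerol channel, stood at 289, 902, 472 and 1077 CPM (log2 1.61 and 1.17) over members and at 1858, 2226, 2079 and 2527 CPM within the class.

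Sprr1a (ENSMUSG00000050359), which encodes a cornified envelope precursor, stood at 13.7, 476, 50.3 and 364 CPM, with log2 ratios of 4.35 and 2.63 (TMM 3.96 and 2.31). Both OVA libraries were several times above both others. Unnamed clusters held 67.8% of its UMIs, most of them in the Krt15 and Krt6a cluster and the Igfbp5 and Egln3 cluster, and secretory-like cells 20.1%. In the Krt15 and Krt6a cluster it stood at 0, 1527, 189 and 790.2 CPM. At 2000 UMIs it was found in 0.699%, 17.5%, 4.7% and 19.4% of members and in 0.00548%, 0.166%, 0.109% and 0.385% of leukocytes (unthinned, 4.76%, 30%, 13.9% and 38.3% of members). Over the 4 Vehicle-OVA members with under 2 leukocyte UMIs the first log2 ratio was -0.18 for Sprr1a and -1.99 for Krt6a. Krt6a, a keratin of injured epithelium, stood at 23.3, 231, 63.5 and 194 CPM (log2 2.85 and 1.47). Its UMIs lay in the Krt15 and Krt6a cluster (94.6%), and without that and the basal-like cluster the first log2 ratio turned to -0.59. Ecm1, an extracellular matrix protein, stood at 2.92, 63.4, 10.4 and 81.1 CPM (log2 2.51 and 2.16) and in leukocytes at 21.2, 88.5, 22.2 and 63.8 CPM, which was also higher in both OVA libraries. For Krt13, a keratin of stratified epithelium, 1 cell of Ribavirin-OVA held 97.1% of the UMIs of that library. Of 13 tested wound response genes, a list that shares Sprr1a and Krt6a with the squamous one, 6 were higher and 0 lower in Vehicle-OVA over Vehicle (median log2 0.50), and 2 were higher and 1 lower in Ribavirin-OVA over Ribavirin (median 0.14; with TMM factors, 4 higher and 0 lower in the first pair and 2 higher and 1 lower in the second).

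The cluster led by Igfbp5 and Egln3 had 0, 5, 6 and 9 cells. Igfbp5, which binds insulin-like growth factors, stood at 241, 1002, 266 and 1107 CPM over all members (log2 2.01 and 2.01), and Egln3, an oxygen-sensing prolyl hydroxylase, at 11.7, 134, 13.9 and 103 CPM (log2 2.74 and 2.24). Both OVA libraries stood above both others. In leukocytes Egln3 stood at 16.3, 121, 18.7 and 43.4 CPM. Rgs5, a regulator of G protein signalling, stood at 2055, 11095, 1525 and 3861 CPM (log2 2.43 and 1.33), and unnamed clusters held 92.4% of its UMIs.

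Some sustentacular genes were lower in Vehicle-OVA. Of 8 markers, 0 were higher and 4 lower in Vehicle-OVA over Vehicle (median log2 -0.95), and 0 were higher and 0 lower in Ribavirin-OVA over Ribavirin (median -0.05; with TMM factors, 0 higher and 7 lower in the first pair and 0 higher and 0 lower in the second). Sec14l3 stood at 639.7, 17, 525 and 358 CPM (log2 -4.59 and -0.54) and Cyp1a2, a cytochrome P450, at 309.9, 21.8, 306 and 255 CPM (log2 -3.33 and -0.26). Cyp2a5, a nasal cytochrome P450, stood at 3922, 2916, 4492 and 5214 CPM (log2 -0.43 and 0.21), within 2-fold in both pairs, and unnamed clusters held 41% of its UMIs. Of 22 tested genes of xenobiotic metabolism, 1 were higher and 3 lower in Vehicle-OVA over Vehicle (median log2 -0.35), and 2 were higher and 0 lower in Ribavirin-OVA over Ribavirin (median 0.20; with TMM factors, 0 higher and 9 lower in the first pair and 1 higher and 1 lower in the second). Gstm1, a glutathione transferase, had log2 ratios of -2.77 and -0.52, and Gsto1, another, of 0.59 and 1.49.

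The 3 genes with the lowest ratios of the first OVA pair by the naming rule were Gm6619 at 20939.5, 1.89, 13169.6 and 9357 CPM, Mup4 (a major urinary protein) at 19104, 0.946, 5494 and 3694 CPM and Obp1a at 51000.4, 20.8, 30188 and 11294 CPM. All 3 were lowest in Vehicle-OVA, and over the 4 libraries gland-like cells held 99.3% of Gm6619, 99.2% of Mup4 and 98.9% of Obp1a UMIs. The gland-like cluster of 29 cells, with all 3 among its leading genes, had 7, 0, 19 and 3 cells in the 4 libraries. The cluster led by Bpifb9b had 5, 0, 18 and 1. Levels within cells of these clusters were thus not measured in Vehicle-OVA. Of 12 gland markers, 2 were higher and 5 lower in Vehicle-OVA over Vehicle (median log2 -0.05), and 0 were higher and 5 lower in Ribavirin-OVA over Ribavirin (median -0.95; with TMM factors, 1 higher and 5 lower in the first pair and 0 higher and 8 lower in the second). Bpifb9a, Bpifb9b, Odam and Obp1a were lower in both pairs. Bpifb9b, a lipid-binding secreted protein, stood at 4188, 0, 7128 and 3345 CPM, and without the largest cell of each library its log2 ratio in Ribavirin-OVA over Ribavirin moved from -1.09 to -6.36. Gland RNA was spread widely over the libraries. Leukocytes carried Obp1a at 134, 59.6, 1133 and 399 CPM, and at 2000 UMIs it was found in 13.8%, 3.21%, 66.1% and 55.1% of them against 14%, 2.5%, 53% and 36.9% of members (unthinned, 42.2%, 17.5%, 94.5% and 93.5%). Shares of members with Obp1a were close to or below those of leukocytes and do not set members apart, whereas the CPM over members came mostly from gland-like cells. The part of free RNA in these shares was not tested.

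Tuft genes were lower or near the median. Of 9 tested markers, 0 were higher and 3 lower in Vehicle-OVA over Vehicle (median log2 -0.39), and 0 were higher and 0 lower in Ribavirin-OVA over Ribavirin (median -0.35; with TMM factors, 0 higher and 3 lower in the first pair and 0 higher and 0 lower in the second). The 3 lower ones were Il25, Gnat3 (the taste G protein gustducin) and Hepacam2. Il25 (ENSMUSG00000040770) was at 127, 1, 71 and 16 UMIs, or 52.9, 0.946, 8.91 and 4.86 CPM, highest in Vehicle (log2 -2.52 and -0.35). Within tuft-like cells it stood at 744, 24.1, 332 and 376 CPM over 37, 4, 39 and 5 cells. In Vehicle-OVA that was 1 UMI in 4 cells, so its level there was not resolved at this depth. At 2000 UMIs it was found in 10.5%, 0%, 3.04% and 1.94% of members and in 0.011%, 0%, 0.0068% and 0.0203% of leukocytes (unthinned, 15%, 2.5%, 4.64% and 3.74% of members). The 0 of 40 members of Vehicle-OVA allows up to 7.5% and the 0 of 12041 leukocytes up to 0.0249%. Trpm5 stood at 85.4, 54.9, 34.7 and 20.7 CPM (log2 -0.56 and -0.55), and Pou2f3, the transcription factor of tuft cells, at 10.8, 14.2, 5.14 and 7.9 CPM.

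Of the other alarmins, Il33 stood at 88.7, 65.3, 84.4 and 53.2 CPM (log2 -0.39 and -0.58), within 2-fold in both pairs, and sustentacular-like cells held 56.7% of its UMIs. Tslp had 4, 1, 16 and 9 UMIs, below the 50 UMIs set for a ratio. Of 10 tested epithelial cytokines, 6 were higher and 1 lower in Vehicle-OVA over Vehicle (median log2 1.15), and 0 were higher and 0 lower in Ribavirin-OVA over Ribavirin (median 0.01; with TMM factors, 4 higher and 1 lower in the first pair and 0 higher and 1 lower in the second). Of the higher ones, Il1rn (the IL-1 receptor antagonist) stood at 6.25, 146, 12.8 and 19.7 CPM in members but at 180.0, 3089, 378 and 511 CPM in leukocytes, and Csf3, the granulocyte growth factor, at 18.7, 89.9, 19.4 and 17.9 CPM in members against 0.645, 169.9, 3.55 and 1.33 CPM. Both were higher in leukocytes of Vehicle-OVA than in its members, beside a neutrophil list of 875 CPM in those members, and the part of leukocyte RNA in them was not tested.

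Several chemokine genes were lower in Ribavirin-OVA than in Ribavirin. Of 14 tested, 4 were higher and 2 lower in Vehicle-OVA over Vehicle (median log2 0.22), and 0 were higher and 6 lower in Ribavirin-OVA over Ribavirin (median -0.76; with TMM factors, 3 higher and 3 lower in the first pair and 0 higher and 6 lower in the second). Cxcl5, a neutrophil attractant of epithelium, stood at 712, 228, 679 and 283 CPM and was lower in both (log2 -1.60 and -1.23). Within secretory-like cells it stood at 2940.4, 525, 1735 and 45.8 CPM, again lower in both OVA libraries. Ccl20, an attractant of dendritic cells, stood at 132, 113, 182 and 67.7 CPM (log2 -0.20 and -1.30). Cxcl2 differed in direction, at 91.2, 486, 121 and 50.7 CPM in members, and stood at 1934, 13128, 4265 and 1801 CPM in leukocytes.

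Several epithelial junction genes were higher with OVA under totals. Of 23 tested, 8 were higher and 0 lower in Vehicle-OVA over Vehicle (median log2 0.61), and 4 were higher and 0 lower in Ribavirin-OVA over Ribavirin (median 0.58; with TMM factors, 3 higher and 0 lower in the first pair and 0 higher and 0 lower in the second). Cdh1, the cadherin of adherens junctions, stood at 133, 438, 162 and 370.0 CPM (log2 1.64 and 1.14; TMM 1.16 and 0.81). Dsc2, a desmosomal cadherin, stood at 16.2, 120.1, 33 and 84.1 CPM (log2 2.31 and 1.13; TMM 1.92 and 0.84), and F11r, a tight junction protein and reovirus receptor, at 58.7, 198, 86.6 and 189 CPM (log2 1.60 and 1.04; TMM 1.14 and 0.72). Of 12 tested genes of ion and water transport, 7 were higher and 0 lower in Vehicle-OVA over Vehicle (median log2 1.03), and 2 were higher and 0 lower in Ribavirin-OVA over Ribavirin (median 0.72; with TMM factors, 2 higher and 0 lower in the first pair and 0 higher and 0 lower in the second). Aqp3, described with the basal genes, was higher in both under totals.

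The balance of antimicrobial genes depended on the scaling. Of 20 tested, 7 were higher and 0 lower in Vehicle-OVA over Vehicle (median log2 0.79), and 2 were higher and 2 lower in Ribavirin-OVA over Ribavirin (median -0.14; with TMM factors, 1 higher and 3 lower in the first pair and 1 higher and 7 lower in the second). Ltf, the iron-binding lactoferrin, stood at 7336, 25577, 9642 and 11500 CPM, highest in Vehicle-OVA (log2 1.80 and 0.25). Pigr, which carries IgA across epithelium, stood at 1347, 3583, 2063 and 3848 CPM (log2 1.40 and 0.90). Defb1, a defensin, and Slpi, a protease inhibitor, were 2-fold higher in both pairs, with log2 ratios of 1.08 and 1.63 for Defb1 and 1.20 and 1.23 for Slpi, while leukocytes held Slpi at 309.8, 1564, 408 and 1253 CPM. Reg3g, a lectin against bacteria, stood at 11834, 15635, 17038 and 10417 CPM (log2 0.40 and -0.71), and secretory-like cells held 86.3% of its UMIs. Of 11 tested receptors of IL-4, IL-13, IL-17 and interferons, 5 were higher and 0 lower in Vehicle-OVA over Vehicle (median log2 0.78), and 2 were higher and 0 lower in Ribavirin-OVA over Ribavirin (median 0.32; with TMM factors, 0 higher and 0 lower in the first pair and 0 higher and 0 lower in the second).

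Under totals, most interferon, stress granule and ribosomal genes were within 2-fold. Of 24 tested interferon-stimulated genes, 4 were higher and 1 lower in Vehicle-OVA over Vehicle (median log2 0.44), and 0 were higher and 1 lower in Ribavirin-OVA over Ribavirin (median -0.00; with TMM factors, 0 higher and 2 lower in the first pair and 0 higher and 3 lower in the second). Ifi27l2a, an interferon-induced mitochondrial protein, was lower in both, at 2035, 567, 1255 and 531 CPM, and in leukocytes it stood at 1018, 428, 1133 and 467 CPM. Of 12 stress granule genes, 1 were higher and 0 lower in Vehicle-OVA over Vehicle (median log2 0.76), and 0 were higher and 0 lower in Ribavirin-OVA over Ribavirin (median 0.55; with TMM factors, 1 higher and 0 lower in the first pair and 0 higher and 0 lower in the second). The one higher gene was Ddx3x, an RNA helicase, at 152, 491, 194 and 385 CPM (log2 1.63 and 0.96) against 258, 659, 303 and 559.6 CPM in leukocytes. G3bp1, which nucleates stress granules, stood at 71.6, 121, 84.9 and 105 CPM (log2 0.68 and 0.28), and Lrp1, an endocytic receptor of macrophages, at 2.92, 12.3, 7.65 and 21.9 CPM in members against 79.4, 109, 82.2 and 114 CPM in leukocytes. Of 18 ribosomal protein genes, 0 were higher and 0 lower in Vehicle-OVA over Vehicle (median log2 -0.21), and 0 were higher and 4 lower in Ribavirin-OVA over Ribavirin (median -0.74; with TMM factors, 0 higher and 4 lower in the first pair and 0 higher and 10 lower in the second).

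The remaining lists are given by their counts. Of 12 tested MHC class I genes, 1 were higher and 0 lower in Vehicle-OVA over Vehicle (median log2 0.11), and 0 were higher and 0 lower in Ribavirin-OVA over Ribavirin (median -0.22; with TMM factors, 1 higher and 0 lower in the first pair and 0 higher and 3 lower in the second). Of 7 MHC class II genes, 0 were higher and 0 lower in Vehicle-OVA over Vehicle (median log2 0.09), and 0 were higher and 0 lower in Ribavirin-OVA over Ribavirin (median -0.41; with TMM factors, 0 higher and 1 lower in the first pair and 0 higher and 1 lower in the second). Of 9 tested complement genes, 3 were higher and 0 lower in Vehicle-OVA over Vehicle (median log2 0.49), and 1 were higher and 0 lower in Ribavirin-OVA over Ribavirin (median 0.02; with TMM factors, 2 higher and 0 lower in the first pair and 0 higher and 1 lower in the second). C3, the central complement component, was higher in both, at 70.4, 476, 182 and 445 CPM (log2 2.60 and 1.25; TMM 2.13 and 0.91) against 142, 241, 141 and 199 CPM in leukocytes. Of 15 immediate early genes, 2 were higher and 0 lower in Vehicle-OVA over Vehicle (median log2 0.26), and 2 were higher and 0 lower in Ribavirin-OVA over Ribavirin (median 0.27; with TMM factors, 1 higher and 3 lower in the first pair and 0 higher and 0 lower in the second). Hspa1b, a heat shock chaperone, and Dusp1, a phosphatase of MAP kinases, were the ones higher in both, with Hspa1b at 31.2, 126, 41.1 and 112 CPM and Dusp1 at 431, 998, 554 and 1349 CPM. Leukocytes held Hspa1b at 5.17, 149, 10.5 and 46.2 CPM and Dusp1 at 1223, 4353, 1664 and 2406 CPM, with the same libraries higher. Of 11 tested cell cycle genes, 1 were higher and 0 lower in Vehicle-OVA over Vehicle (median log2 0.34), and 0 were higher and 0 lower in Ribavirin-OVA over Ribavirin (median 0.27; with TMM factors, 0 higher and 0 lower in the first pair and 0 higher and 0 lower in the second). The gene higher in the first pair was the proliferation marker Mki67, at 15, 41.6, 12.2 and 16.7 CPM against 75.3, 48, 64.2 and 91.8 CPM in leukocytes. Of 7 tested secretory markers, 0 were higher and 2 lower in Vehicle-OVA over Vehicle (median log2 0.09), and 0 were higher and 1 lower in Ribavirin-OVA over Ribavirin (median -0.41; with TMM factors, 0 higher and 2 lower in the first pair and 0 higher and 3 lower in the second), and Scgb3a1, a secretoglobin, was lower in both, at 377, 26.5, 120.4 and 54.1 CPM. Of 7 ionocyte markers, 0 were higher and 2 lower in Vehicle-OVA over Vehicle (median log2 -0.91), and 0 were higher and 0 lower in Ribavirin-OVA over Ribavirin (median -0.08; with TMM factors, 0 higher and 4 lower in the first pair and 0 higher and 0 lower in the second), and Foxi1, the transcription factor of ionocytes, stood at 23.3, 1.89, 18.6 and 9.11 CPM.

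**Figure D4:**
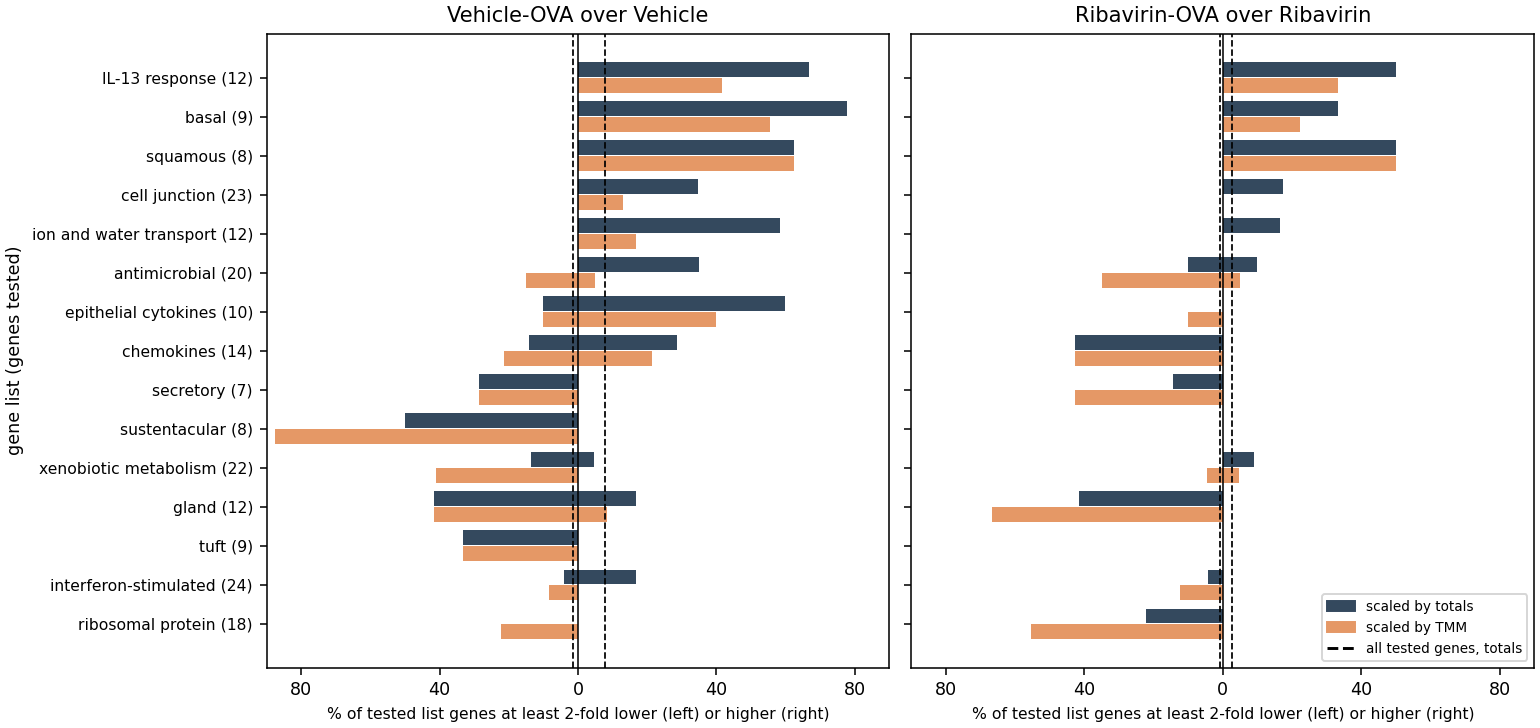
For each list, bars to the right give the percent of its tested genes at least 2-fold higher and bars to the left the percent at least 2-fold lower, scaled by totals (dark) and by TMM factors (orange), with the percent over all tested genes as dashed lines. In the first OVA pair the IL-13 response list reached 8 of 12 genes under totals and 5 of 12 with TMM factors, and the gland list held lower but no higher genes in the second.

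Finally, the ribavirin pairs were described, which share their libraries with the OVA pairs. In Ribavirin over Vehicle, 68 genes were higher (0.631%) and 34 lower (0.315%), fewer than in either OVA pair. In Ribavirin-OVA over Vehicle-OVA, 141 were higher (1.31%) and 120 lower (1.11%). The TMM factors differed within these pairs by a log2 of 0.12 and -0.04, and the median log2 ratio moved from 0.078 to 0.003 and from -0.023 to 0. With TMM factors 58 were higher and 46 lower in the first, and 134 higher and 101 lower in the second.

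Bpifa1 (ENSMUSG00000027483), a secreted surfactant-like defence protein of the upper airway, differed in both ribavirin pairs. It stood at 6061, 6473, 27241 and 27141 CPM, with log2 ratios of 2.17 and 2.07 for ribavirin and 0.09 and -0.01 for OVA. Both ribavirin libraries were above both vehicle libraries. Within secretory-like cells, which held 88.5% of its UMIs, it stood at 44645, 41811, 110135 and 112516 CPM, over 14, 6, 60 and 14 cells. A single cell held 47.1% of its UMIs in Vehicle and 49.4% in Vehicle-OVA, and without the largest cells the ribavirin log2 ratios were 2.97 and 2.80. In leukocytes it stood at 16.6, 41.1, 69.3 and 220.3 CPM, also higher with ribavirin. At 2000 UMIs it was found in 9.09%, 20%, 19.1% and 37.9% of members and 2.92%, 8.51%, 15.1% and 38.5% of leukocytes (unthinned, 17%, 42.5%, 56% and 90.7% of members). In Ribavirin-OVA the members' share at 2000 UMIs did not exceed that of leukocytes, and the part of free RNA in it was not tested. Bpifb1, its relative, stood at 105, 217, 243 and 428 CPM (log2 1.14 and 0.95).

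Genes with the most extreme ratios, in Ribavirin over Vehicle and in the OVA pairs, led small clusters in part. Bpifb6, Ptgds (a prostaglandin D synthase) and Ces1a (a carboxylesterase) were highest in Ribavirin over Vehicle. Bpifb6 stood at 0.416, 1.89, 1095 and 36.8 CPM, Ptgds at 2.08, 18, 328 and 5.16 CPM and Ces1a at 0, 0.946, 81 and 10.9 CPM, high in Ribavirin alone. Bpifb3 stood at 154, 7941, 1035 and 1099 CPM, highest in Vehicle-OVA. Scgb2b27, Car6 (a salivary carbonic anhydrase) and Scgb1b27 were the 3 lowest in the OVA pair Ribavirin-OVA over Ribavirin and belonged to a cluster of 9 cells. Car6 stood at 62.1, 0, 590.0 and 0.304 CPM. Psca, among the highest in that OVA pair, came from 1 cell (100% of its UMIs in Ribavirin-OVA). Sval2, Fxyd2 and Pip were lowest in Ribavirin over Vehicle, and Pip, a secreted gland protein, stood at 1121, 24.6, 235 and 120.0 CPM.

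Lists were described in the ribavirin pairs in the same way, first for Ribavirin over Vehicle and then for Ribavirin-OVA over Vehicle-OVA, with counts under TMM factors where they differed. Of the 12 IL-13 response genes, 2 were higher and 0 lower in the first pair and 3 were higher and 2 lower in the second. Chil4 had ribavirin log2 ratios of 1.28 and 2.72, and was thus higher with ribavirin in both. Of the 24 interferon-stimulated genes, 0 were higher and 0 lower in the first pair and 0 were higher and 2 lower in the second (with TMM factors, 0 higher and 1 lower in the second). The antimicrobial list leaned to opposite sides in the pairs, as of 20 genes 4 were higher and 0 lower in the first pair and 1 was higher and 7 lower in the second (with TMM factors, 3 higher and 0 lower in the first and 2 higher and 5 lower in the second). This list held S100a8 and S100a9, which were found in a larger share of leukocytes than of members. The neutrophil list in members was at 875 CPM in Vehicle-OVA and 276 CPM in Ribavirin-OVA. The part of leukocyte RNA in these counts was not tested. Of 10 tested genes of virus entry, 1 was higher and 0 lower in the first pair and 0 were higher and 0 lower in the second.

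Genes of the epithelial classes were past 2-fold on both sides. Of the 12 gland markers, 1 was higher and 0 lower in the first pair and 5 were higher and 6 lower in the second (with TMM factors, 1 higher and 1 lower in the first and 5 higher and 5 lower in the second), so that nearly all were past 2-fold in the second pair but without a common direction. Of the 9 basal markers, 3 were higher and 0 lower in the first pair and 0 were higher and 0 lower in the second, and of the 7 outside the selection rule 1 was higher and 0 lower in the first pair and 0 were higher and 0 lower in the second. Of the 8 squamous genes, 3 were higher and 0 lower in the first pair and 2 were higher and 1 lower in the second, and of the 13 wound response genes 3 were higher and 0 lower in the first pair and 0 were higher and 1 lower in the second. Tuft markers past 2-fold were lower in both pairs, as of 9 genes 0 were higher and 2 lower in the first pair and 0 were higher and 2 lower in the second. Of the 7 secretory markers, 2 were higher and 1 lower in the first pair and 2 were higher and 0 lower in the second, and of the 8 sustentacular markers 0 were higher and 0 lower in the first pair and 2 were higher and 0 lower in the second (with TMM factors, 3 higher and 0 lower in the second). Genes of xenobiotic metabolism past 2-fold were higher in both pairs, as of 22 genes 1 was higher and 0 lower in the first pair and 4 were higher and 0 lower in the second (with TMM factors, 5 higher and 0 lower in the second). Genes of the epithelial cytokine list past 2-fold were lower, as of 10 genes 0 were higher and 1 lower in the first pair and 0 were higher and 4 lower in the second. The lower ones in the second pair included Il1rn and Csf3, which were higher in leukocytes of Vehicle-OVA than in its members. The part of leukocyte RNA in them was not tested. Of the 14 chemokine genes, 2 were higher and 0 lower in the first pair and 0 were higher and 3 lower in the second.

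All 7 tested genes of ribavirin uptake and GTP synthesis were within 2-fold in the 4 pairs, with medians between -0.09 and 0.37. Slc29a1, a nucleoside transporter that takes up ribavirin, stood at 5.83, 2.84, 6.52 and 11.5 CPM, and Adk, the kinase that phosphorylates it, at 10.8, 7.57, 8.41 and 8.81 CPM.

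**Figure D5:**
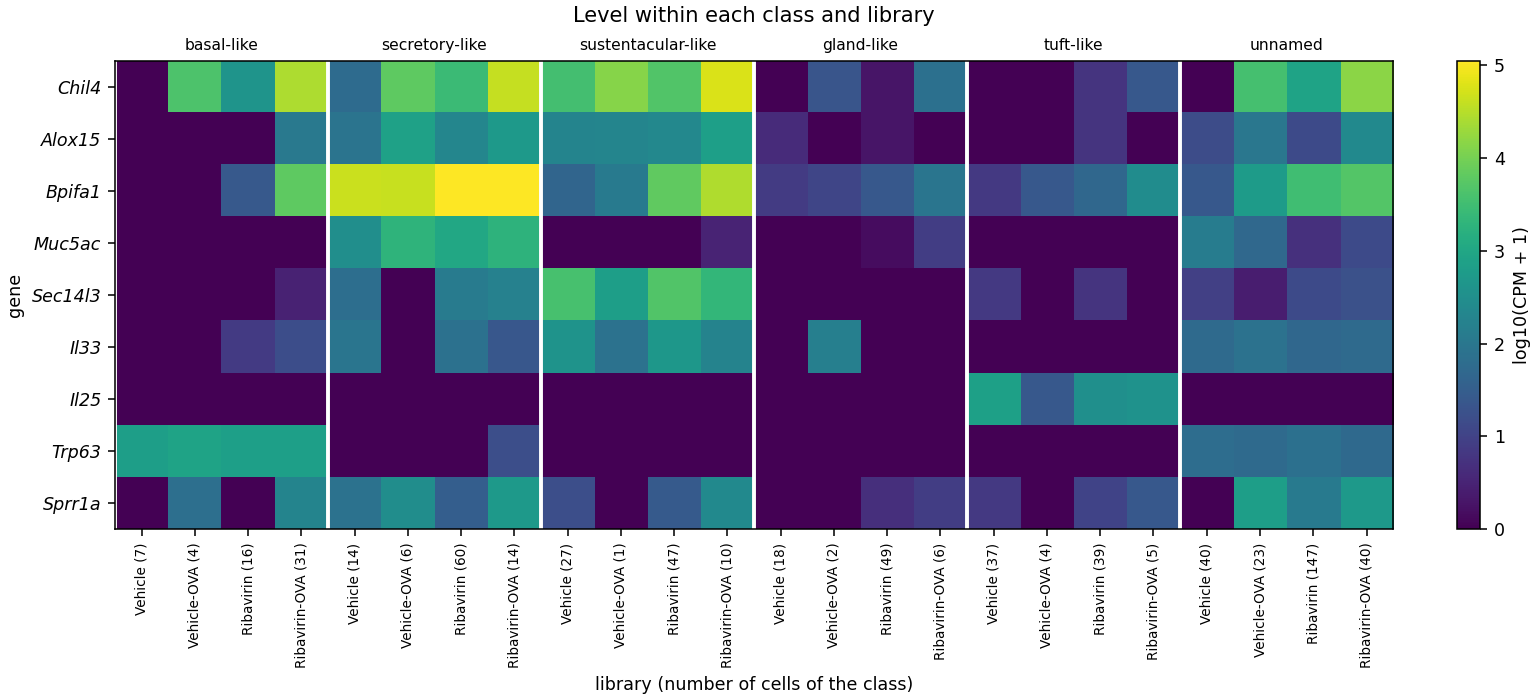
Colours give the log10 of CPM + 1 of each gene (rows) within each class and library (columns, with the number of cells in brackets). Chil4 was higher in the OVA library of each pair in sustentacular-like, secretory-like and basal-like cells, Il25 was found in tuft-like cells, Bpifa1 was highest in secretory-like cells, and Trp63 in basal-like cells was near 700 CPM or above in all libraries.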

How the data were processed

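CD45+ cells of the nasal mucosa had been run on the 10x Chromium 3′ platform, with 1 library per group and 4 libraries in all. The authors deposited gene-by-cell matrices of raw UMI counts made with Cell Ranger 5.0.0 on mm10, per the submitters' processing notes. These counts were used as deposited.

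Cells were filtered at 500 UMIs, 200 genes and 10% mitochondrial UMIs, and members were selected by the UMI rule. The members and gene lists were chosen with earlier results of these data known. Member counts were summed per library and scaled to CPM. Ratios were taken on CPM + 10 for genes with at least 50 UMIs, and 2-fold or more was counted as different, since 1 library per group allows no test. A ratio on this scale understates the difference of low genes. TMM factors were computed in numpy 2.4.6. Intervals were exact (Clopper-Pearson for shares, conditional binomial for ratios, at 95%), and the upper limit of a count of 0 was 3 counts. UMIs sum over cells that share a library, so intervals cover counting error only.

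Members were clustered with scanpy 1.11.5 (2000 variable genes, 30 components, 15 neighbours, Leiden resolution 1, seed 0). A cluster took the class with the most detected markers where at least 3 were detected. A marker was detected in at least 10% of cells and at 2-fold or more over the mean CPM of the other clusters, with 20 CPM added to both. A cluster was left unnamed if another class had more markers among its 10 leading genes. It was also left unnamed if its UMIs per cell were low and none of those genes was a marker of the class. Doublet scores followed the Scrublet procedure. They marked 6.77%, 0%, 4.44% and 0.771% of passing cells, so the two-mode threshold had not worked in Vehicle-OVA, and cells with the highest scores up to the expected rate (10.3%, 7.00%, 8.11% and 3.53%) were removed as an alternative chosen after seeing the data. No doublet was removed in the results as reported.

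Named genes were those of the selection rule, the 3 highest and 3 lowest ratios of each pair among genes at least 2-fold above other cells, up to 4 genes per list by size of ratio and the list's defining genes, the 10 genes most above other cells, the leading genes of clusters, and G3bp1, Lrp1, Il33, Tslp, Il25, Muc5ac, Clca1, Reg3g, Bpifa1 and Scgb1a1. Other genes of a list are named where a count called for them, chosen after their values were seen. Promoters came from RefSeq on GRCm38.p6, with 8 of 12 IL-13 response genes matched and none found for Alox15 and Arg1. The ratio code was tested on simulated data. Alternatives were other limits of the rule, pseudocounts, scaling, thinning, doublet removal and clustering settings. Some single-gene values are not reported here.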

Additional observations from a re-analysis of the deposited data

Results flagged for a closer look

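Of 10785 genes, 10 differed by 2-fold or more in opposite directions between the OVA pairs, and the 5 of them that the naming rule covers are given for a closer look. Each pair was 1 library against 1, and the difference between the pairs was not tested. Ptgds had a log2 ratio of 1.21 in Vehicle-OVA over Vehicle and of -4.48 in Ribavirin-OVA over Ribavirin, and Gpx6, a secreted glutathione peroxidase, of 2.13 and -2.48. Both led a cluster of 43 members. Hist1h1b, a linker histone of dividing cells, had log2 ratios of 2.65 and -1.02. Cxcl2 had log2 ratios of 2.29 and -1.11, with a level of 1934, 13128, 4265 and 1801 CPM in leukocytes, above that in members of every library. Crym, which binds thyroid hormone and led a sustentacular-like cluster that Vehicle-OVA lacked, had log2 ratios of -1.20 and 1.31.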

How the results depend on the processing

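Each group was 1 library, and leaving out a replicate was not run. No paired analysis was possible because each group had 1 library and the results came from no test. Equal weighting of classes was not run, since no class had enough cells in every library. In Vehicle-OVA, 40 members set the limit on depth.

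The log2 share ratio of Vehicle-OVA over Vehicle went from -1.32 to -0.79 with no condition on Ptprc, to -0.56 at 2000 UMIs per cell and to 0.10 without the highest doublet scores. That of Ribavirin-OVA over Ribavirin went from -0.57 to 0.0934 at 2000 UMIs, and that of Ribavirin over Vehicle from 1.66 to 3.18 without the highest doublet scores. The ratio of Ribavirin-OVA over Vehicle-OVA stayed between 1.89 and 2.63.

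Counts of genes past 2-fold depended on the pseudocount. In the order Vehicle-OVA over Vehicle, Ribavirin-OVA over Ribavirin, Ribavirin over Vehicle and Ribavirin-OVA over Vehicle-OVA, the 994, 375, 102 and 261 genes became 2711, 1177, 421 and 883 with 1 CPM added and 215, 93, 32 and 83 with 50 CPM added. Over members with under 2 leukocyte UMIs (4 cells in Vehicle-OVA) they became 4106, 928, 180 and 3619. Without the highest doublet scores the first became 3148, the third 3155 and the fourth 438. Median-of-ratios size factors gave 658 in the first pair, and leaving out the basal-like and the Krt15 and Krt6a clusters gave 234 in the second.

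The basal-like log2 ratio of Ribavirin-OVA over Ribavirin, 2.73 as reported, was 1.52 at a clustering resolution of 2, 1.23 with under 2 leukocyte UMIs, 0.81 at 2000 UMIs, 0.93 with no clustering and 0.79 when joined with the unnamed Krt15 and Krt6a cluster, a setting chosen after seeing the data. The tuft-like ratio of Vehicle-OVA over Vehicle went from -1.33 to 0.50 with under 2 leukocyte UMIs and was as low as -2.55 without the highest doublet scores, where that of Ribavirin over Vehicle went from -1.24 to -2.74. In Vehicle-OVA over Vehicle, the sustentacular-like ratio went from -2.88 to -0.24 at a resolution of 0.5, the gland-like ratio from -1.29 to 0.97 at a resolution of 2 and to 2.57 without the highest doublet scores, and the secretory-like ratio from 0.66 to 2.72 with under 2 leukocyte UMIs. The limit on leukocyte UMIs also turned the Vehicle-OVA over Vehicle ratios of Chil4 to -4.52, Alox15 to -2.59, Sprr1a to -0.18 and Krt6a to -1.99. Il4ra turned to -0.93 without the highest doublet scores and Krt6a to -0.59 without the basal clusters. Other values of single genes and lists stayed within their limits under 405 combinations of value and alternative and moved beyond them under 215. A turn was counted only for single-gene ratios of at least 2-fold, so the 215 include turns of smaller ratios. Muc5ac in Ribavirin-OVA over Ribavirin, for example, went from 0.41 to -1.59. The causes of these differences were not tested.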
